A study of Mus musculus with 3 samples.

Results

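The clustered replication-dependent histone genes were taken as all genes whose symbol starts with Hist1h, Hist2h, Hist3h or Hist4h, the older names of genes in 4 genomic clusters. The rule found 70 of 55536 annotated genes, of which 67 were annotated as protein-coding and 3 as pseudogenes (Hist1h2aj, Hist1h2al and Hist3h2bb-ps). By histone type they comprised 6 H1, 20 H2A, 19 H2B, 12 H3 and 13 H4 genes. Total RNA depleted of ribosomal RNA was sequenced from the cytosolic fraction of primary bone marrow-derived macrophages of C57BL/6J mice, which are phagocytes grown from marrow progenitors. All cells had received Lipid A, the part of bacterial lipopolysaccharide that Toll-like receptor 4 recognises, at 100 ng/ml for 40 minutes. The 3 libraries form 1 group and are biological replicates 1, 2 and 3 by their labels, with separate sample records but 1 donor record. No label gives an age, sex or genetic change. Neither unstimulated cells nor another cell fraction entered the work, and every value is a level in stimulated cytosol, not a response to Lipid A.

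Clustered histone genes supply the bulk of the core and linker histones that package newly copied DNA. Their messages are made mainly in S phase, mostly lack introns, and end in a conserved stem-loop instead of a poly(A) tail. The stem-loop is bound by the stem-loop binding protein SLBP, and the message is cut downstream of it with the help of the U7 small nuclear RNP. These messages are degraded quickly when DNA synthesis stops, and RNA libraries made by poly(A) selection largely miss them. Some clustered genes are also known to give longer polyadenylated messages in cells that have left the cell cycle. Replacement histones, such as H2A.Z and the replacement form of H3, come from genes elsewhere whose messages are polyadenylated and made throughout the cell cycle.

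The stem-loop is shown first because it defines the class and was present in the annotated RNA of most members. A 16-base stem-loop with fully paired arms was found in the main annotated transcript, the one with the highest mean level, of 46 of the 70 genes. It was found in 57 of 58797 protein-coding transcripts of all genes, or 0.0969%, on the sense strand, and in 2 on the other strand. Of these 57, 9 belonged to genes that are not members: H2afx, H2bfm, Clec2d, Syncrip and Trim17. Trim17 is annotated from the same start and on the same strand as Hist3h2a, which shares 32.1% of its 31-base stretches with it. Whether the Trim17 match is the stem-loop of Hist3h2a was not tested. The 8 sequence variants divided by histone type. The commonest, in 26 members, was the form of 8 of the 10 H2B genes with a match, all but Hist1h2bb and Hist1h2bk, and no H4 gene had it. The H4 stem-loops differed from those of the other types in their arms. In the lines below, from GENCODE M21 transcripts, capitals mark the 16-base stem-loop and lower case the adjoining transcript bases, 5′ to 3′:
Hist1h1c, the most highly counted linker histone gene: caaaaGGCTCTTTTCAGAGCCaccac
Hist2h2aa2, the H2A gene with the highest level: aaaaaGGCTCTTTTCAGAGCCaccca
Hist2h2ac, the only member with this 16-base form: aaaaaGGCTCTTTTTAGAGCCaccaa
Hist1h3c, an H3 gene with a form shared by 6 members: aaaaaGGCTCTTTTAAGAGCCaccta
Hist1h4h, the H4 gene with the highest level: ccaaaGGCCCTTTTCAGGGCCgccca
Hist1h4b, with the arm of 2 H4 genes: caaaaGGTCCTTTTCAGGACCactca
The members with the commonest stem-loop held 62.5%, 52.0% and 56.1% of the clustered histone counts in replicates 1, 2 and 3. Those with the commonest H4 form, 7 genes, held 7.34%, 12.2% and 8.85%. The 24 members without a match include 13 whose annotated transcript is the coding sequence alone, so that the absence of the letters there says nothing about the RNA.

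The annotated transcripts fell into classes by how far they run past the stem-loop, with a limit of 100 bases chosen after the values were seen. In 23 members, among them Hist2h2aa1, Hist2h2aa2, Hist1h2ap and Hist1h4h, the transcript ended within 100 bases of the stem-loop, and the poly(A) signal AATAAA, searched on the transcript strand, was in the last 50 bases of none. In another 23 it ran on for more than 100 bases, for 840 bases in Hist1h1c, 1643 bases in Hist3h2a and 1257 bases in Hist2h4, and 10 of these ended with AATAAA. Of all protein-coding transcripts, 40.5% had AATAAA in that window. The genes with the longer models held 51.7% ± 4.17 (SD, n = 3) of the clustered histone counts but 24.9% ± 2.92 of their TPM. The genes with short ends held 22.4% ± 2.10 of the counts and 45.4% ± 1.34 of the TPM. TPM is a level per effective length of the annotated transcript, and main-transcript lengths ran from 312 bases (Hist1h4k) to 7425 bases (Hist1h1d). A TPM here therefore depends on where the annotation places the ends, and whether reads cover the long ends was not tested because the tables hold no positions.

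Promoter windows were compared because several H2A and H2B genes start back to back and share them. RefSeq windows on build GRCm38.p6, from 250 bases before to 50 bases after the start, were matched for 61 members. The CCAAT box, searched as CCAAT on both strands, was in 52 of the 61, or 85.2%, against 37.4% of all 32851 windows of the table. It was in all 49 windows of H1, H2A, H2B and H3 genes and in 3 of 12 of H4 genes. TATAAA, on both strands, was in 57.4% against 13.6%. The octamer ATTTGCAT, on both strands, was in 21.3% against 1.74% and occurred in 7 of 17 H2A and 6 of 16 H2B windows and in no other type. Each motif was searched independently, so that overlapping matches count for both, and a match describes the letters alone. Windows of head-to-head partners overlap, so a single site can count for both genes, as the octamer does for Hist1h2ae and Hist1h2bg. The counts of windows are therefore not counts of independent sites. The windows of a pair of head-to-head units and of the leading H4 gene are given 5′ to 3′ on the strand of the named gene, with these motifs in capitals in either orientation:
Hist1h2ac, chr13:23683910-23684209, minus strand, reaching past the annotated start of Hist1h2bc: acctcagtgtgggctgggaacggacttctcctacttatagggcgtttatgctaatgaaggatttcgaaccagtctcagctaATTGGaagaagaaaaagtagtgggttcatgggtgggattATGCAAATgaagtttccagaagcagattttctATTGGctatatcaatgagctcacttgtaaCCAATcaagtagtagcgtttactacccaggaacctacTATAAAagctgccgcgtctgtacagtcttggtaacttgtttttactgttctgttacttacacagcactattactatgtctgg
Hist2h2ac, chr3:96220831-96221130, minus strand, reaching past the annotated start of Hist2h2be: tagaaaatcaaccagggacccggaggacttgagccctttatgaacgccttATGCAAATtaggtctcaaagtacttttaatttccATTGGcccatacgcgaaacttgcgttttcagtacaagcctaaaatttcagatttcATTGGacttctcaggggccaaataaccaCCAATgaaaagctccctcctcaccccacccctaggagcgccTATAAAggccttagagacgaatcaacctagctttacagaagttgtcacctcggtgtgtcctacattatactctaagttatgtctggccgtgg
Hist1h4h, chr13:23530794-23531093, plus strand, with none of the 3 motifs: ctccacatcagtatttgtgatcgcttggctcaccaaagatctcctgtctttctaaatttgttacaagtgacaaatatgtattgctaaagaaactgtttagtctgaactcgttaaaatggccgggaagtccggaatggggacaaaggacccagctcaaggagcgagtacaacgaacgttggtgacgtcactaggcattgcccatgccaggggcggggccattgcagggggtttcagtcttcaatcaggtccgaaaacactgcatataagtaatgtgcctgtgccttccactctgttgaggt

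The libraries held 37861150, 37136495 and 58889061 expected counts in genes, where an expected count is the estimated number of reads of a gene. The macrophage label was checked with 7 macrophage markers, all above 1 TPM in the mean (25.7 to 5974 TPM). Markers of lymphocytes, erythroid cells and stroma stayed at or below 0.0900 TPM in the mean, with Cd3e and Hbb-bt at 0 counts. No marker of dendritic cells or myeloid progenitors exceeded 0.750 TPM in the mean. Of 6 neutrophil markers, which summed to 38.2 to 51.4 TPM, S100a8 and S100a9 were at 12.7 and 22.9 TPM and Ly6g at 0 counts. The cytosolic label was checked with 5 nuclear RNAs, of which 4 were present in all libraries and Meg3 had at most 1 count. Malat1, a nuclear long non-coding RNA, stood at 291, 264 and 898 TPM, and 4 of the 4 nuclear RNAs tested differed between the libraries (edgeR goodness of fit, largest adjusted p = 0.000790), all highest in replicate 3. The level of the members that comes from nuclear RNA was not tested. Rn7sk, a small nuclear RNA, held 46732, 43426 and 80561 TPM, and protein-coding genes held 33.2%, 37.0% and 24.1% of all TPM. A TPM of any member falls where such RNAs rise, so differences of members between libraries are given below on counts scaled for library makeup. Shares of unscaled counts are affected too, since protein-coding genes held 90.5%, 91.9% and 85.9% of the gene counts.

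The clustered histone genes together held a similar share of the gene counts of each library. Their counts summed to 16352, 16596 and 25745. Of the gene counts this was 0.0432% in replicate 1, with a 95% Wilson interval from 0.0425 to 0.0439%, which covers counting error only. In replicate 2 it was 0.0447%, with an interval from 0.0440 to 0.0454%, and in replicate 3 it was 0.0437%, from 0.0432 to 0.0443%. The mean was 0.0439% ± 0.000760 (SD, n = 3). The intervals of replicates 1 and 2 did not overlap, and that of replicate 3 overlapped both. Set against the counts of protein-coding genes alone, the sum was 0.0477%, 0.0486% and 0.0509%, highest in replicate 3. As levels per length, the members summed to 499, 634 and 447 TPM.

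Most members were present, at modest levels. At least 10 expected counts in every library were found for 59 of the 70 genes, here called detected, and 54 had a mean of at least 1 TPM. The median was 5.10 TPM over all 70 members, with no filter on level, and 5.94 TPM over the 59 detected. It was 6.17 TPM for the 11458 protein-coding genes with a mean of at least 0.1 TPM. Hist1h1c, Hist2h2aa2 and Hist1h2bc were the 3 members above 42.1 TPM, where the top 10% of those protein-coding genes began. The level of Hist2h2aa2 depends on how reads shared with Hist2h2aa1 were divided. Of the genes of each type, 5 of 6 for H1, 14 of 20 for H2A, 15 of 19 for H2B, 12 of 12 for H3 and 13 of 13 for H4 were detected.

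**Figure D1:**
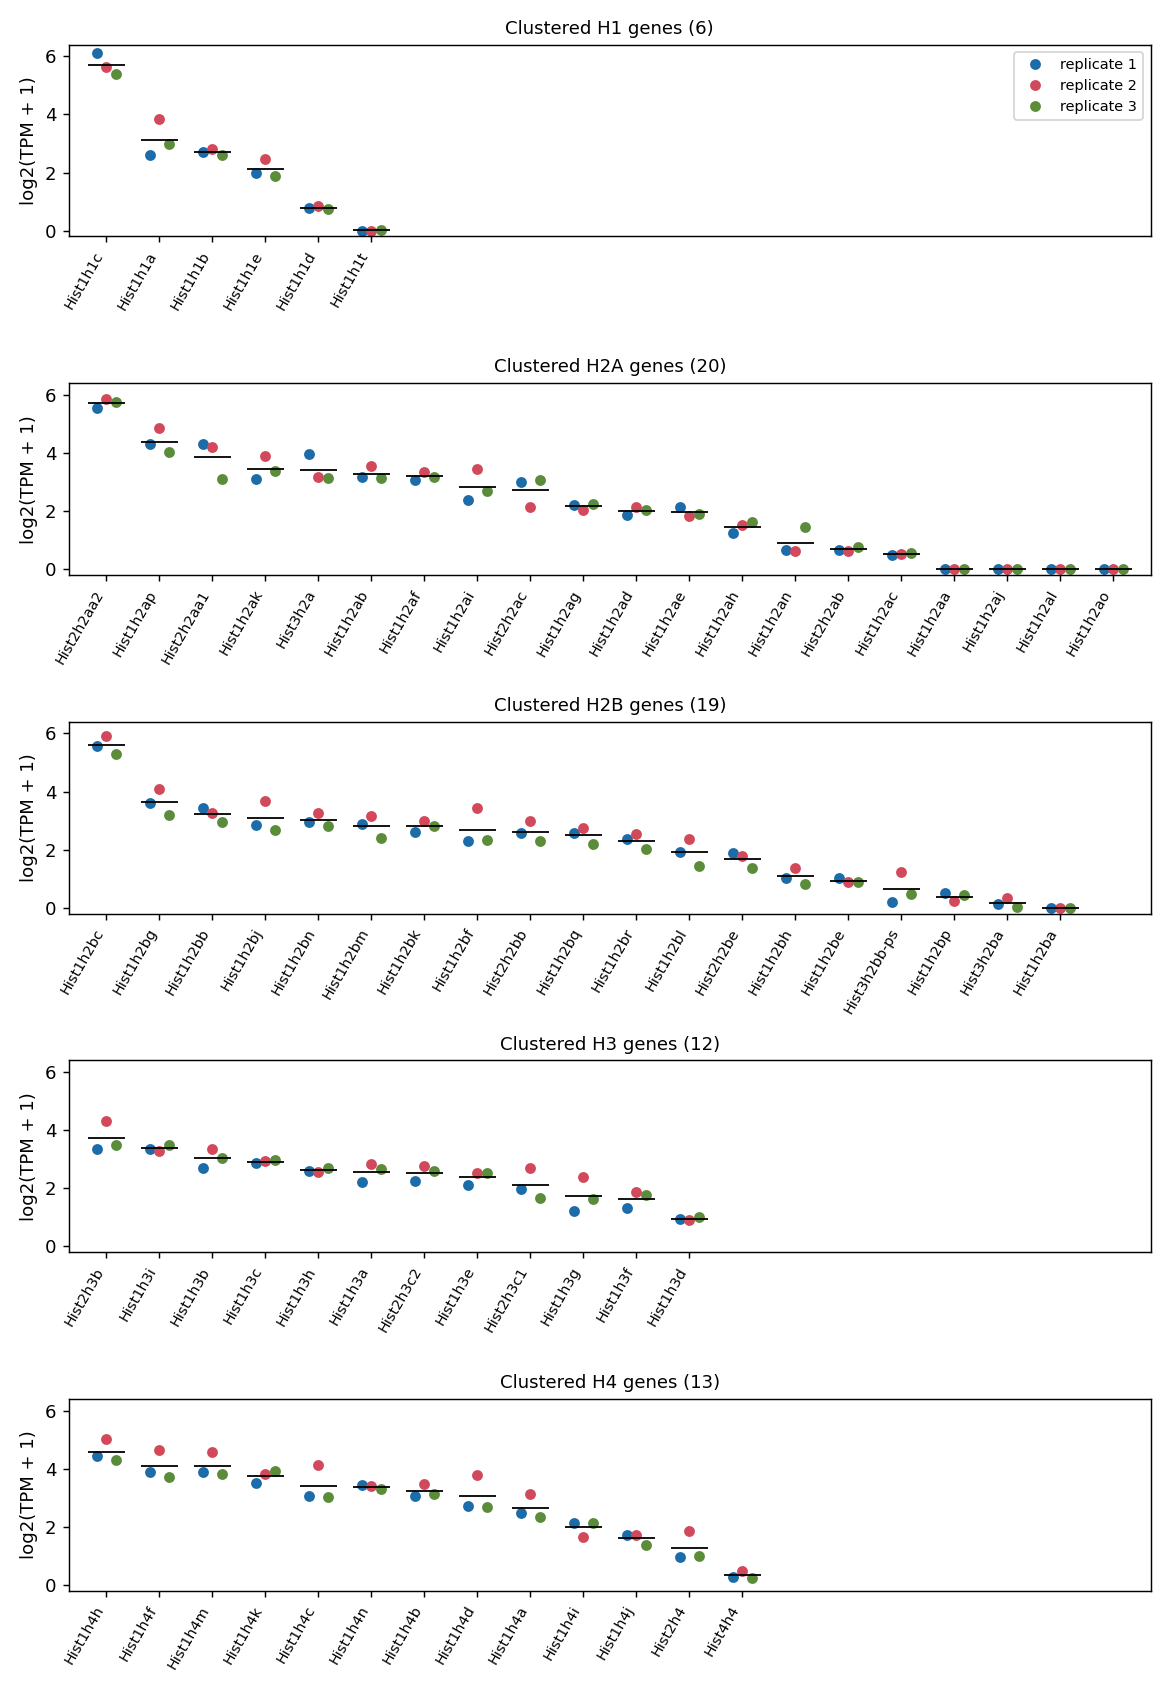
Level of each of the 70 clustered histone genes as log2(TPM + 1), 1 panel per histone type, ordered by mean TPM; points are the 3 libraries and the black line is the mean of the log2 values. Hist1h1c, Hist2h2aa2 and Hist1h2bc stand above the rest of their panels in all 3 libraries, and 5 H2A and H2B genes lie at 0.

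A few genes made up a large part of the counts. The linker histone gene Hist1h1c (chr13, 23738808 to 23740367, plus strand) alone held 30.7%, 20.1% and 23.4% of the clustered histone counts. Together with Hist1h2bc, Hist3h2a and Hist2h2aa2 it held 59.4%, 47.1% and 51.9% of the counts in replicates 1, 2 and 3. The mean was 52.8% ± 6.18 (SD, n = 3) of the counts, and 31.2% ± 4.03 of the TPM. The remaining 66 genes shared the rest, and the 10 most counted members reached 65.2% ± 3.87.

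Shares by histone type depended on whether reads or reads per length were summed. In counts, H1 genes held 31.1% ± 4.38 (SD, n = 3) of the clustered total, H2B 25.1% ± 1.93, H2A 20.7% ± 2.14, H4 12.7% ± 2.86 and H3 10.3% ± 2.11. In TPM, H2A genes led with 28.7% ± 1.82, followed by H2B with 23.3% ± 1.84, H4 with 22.1% ± 2.28, H1 with 13.6% ± 2.67 and H3 with 12.3% ± 1.74. The H1 share exceeded every other type's in counts in replicates 1 and 3, and in replicate 2 the types H1 and H2B were level, with 4539 and 4541 counts. In TPM the order of H1 and H3 differed between libraries, and so did that of H2B and H4 (21.2% and 21.8% in replicate 3). The median main transcript of H1 genes was 1236 bases long and that of H2A genes 476.5 bases.

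**Figure D2:**
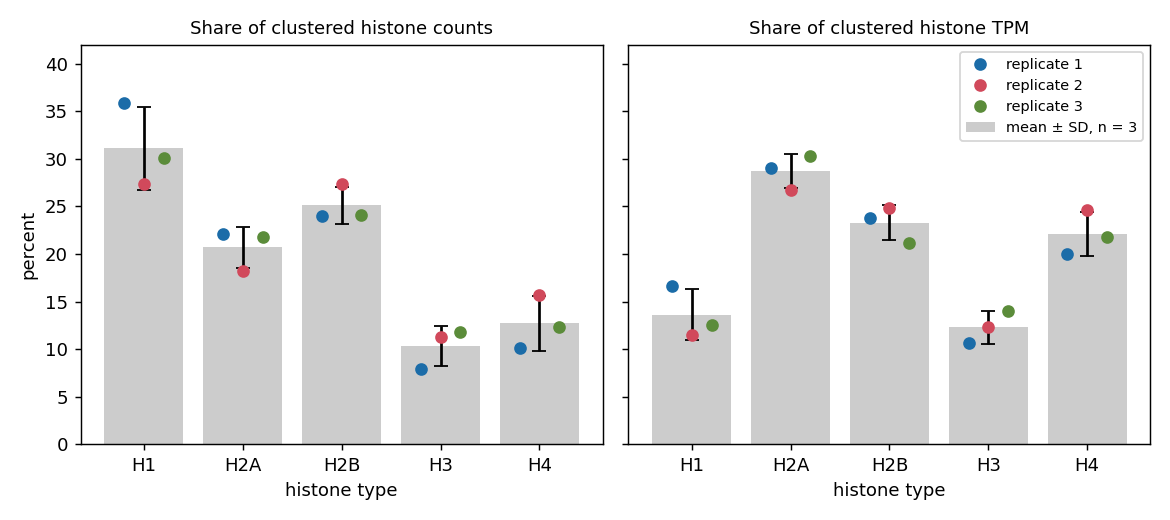
Share of the summed counts (left) and of the summed TPM (right) of the 70 genes held by each histone type, in percent; bars are means with SD over 3 libraries and points are the libraries. H1 falls from 31.1% of counts to 13.6% of TPM, and H4 rises from 12.7% to 22.1%.

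Among the linker histone genes, which encode the proteins that bind DNA between nucleosomes, Hist1h1c stood far above the rest. Its level was 68.7, 48.7 and 40.7 TPM, a mean of 52.7 ± 14.4 (SD, n = 3), highest in replicate 1. It held 79.0% ± 6.01 of all H1 counts. Hist1h1a was at 5.01, 13.2 and 6.95 TPM and was highest in replicate 2. Hist1h1b was at 5.55, 5.96 and 5.09 TPM and Hist1h1e at 2.96, 4.48 and 2.67 TPM. Hist1h1d had about as many counts as Hist1h1e (276, 300 and 528 against 276, 393 and 505) but only 0.723 ± 0.0777 TPM over its 7425-base model, whose coding part is 666 bases. The ranges of Hist1h1c and of the other H1 genes did not overlap. Hist1h1t, a testis linker histone, had a count of 1 in replicate 3 and 0 in the other libraries.

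Among the H2A genes, Hist2h2aa2 was highest at 46.1, 56.3 and 52.4 TPM (51.6 ± 5.16, SD, n = 3), above every other H2A gene in each library. Hist1h2ap followed at 18.8, 28.0 and 15.2 TPM, and Hist2h2aa1 stood at 18.6, 17.4 and 7.58 TPM. The ranges of Hist1h2ap and Hist2h2aa1 overlapped. Hist2h2aa2 had 0.0% of its 31-base stretches to itself, Hist2h2aa1 10.3% and Hist1h2ap 6.6%. The order of these genes thus depends on how the quantification divided shared reads. Hist1h2ak was at 10.3 ± 3.27 TPM and Hist3h2a at 10.1 ± 3.88 TPM. In counts Hist3h2a had 1533, 793 and 1643, above Hist2h2aa2 (770, 857 and 1755) in replicate 1 and below it in replicates 2 and 3. Per kilobase of coding sequence these genes stood at 103, 54.3 and 71.0 CPM for Hist3h2a and at 51.7, 58.7 and 75.8 CPM for Hist2h2aa2, where CPM is the count scaled to a fixed library sum. Their ranges overlapped on that scale, while by TPM, over an annotated transcript of 2146 bases, Hist3h2a was far below in every library. The other 9 detected H2A genes ran from 0.440 TPM (Hist1h2ac) to 8.90 TPM (Hist1h2ab) in the mean. Below the limit for detection, Hist1h2an had 5.44, 4.58 and 32.5 counts and Hist2h2ab 7, 6 and 17.

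Among the H2B genes, Hist1h2bc was highest at 46.7, 59.3 and 38.1 TPM (48.0 ± 10.6, SD, n = 3) and held 62.2% ± 1.35 of H2B counts. Its annotated transcript is spliced, 1156 bases long, and holds no stem-loop match. Hist1h2bg was at 11.3, 16.0 and 8.13 TPM, Hist1h2bb at 8.42 ± 1.59 TPM, Hist1h2bj at 7.82 ± 3.44 TPM and Hist1h2bn at 7.13 ± 1.30 TPM. The lowest value of Hist1h2bc was above the highest of any other H2B gene. Hist2h2be had 7.48% ± 1.41 of H2B counts, more than Hist1h2bg in replicates 1 and 3 and fewer in replicate 2, but stood at 2.24 ± 0.597 TPM over a 2620-base model. The other 10 detected H2B genes, Hist2h2be among them, ran from 0.903 TPM (Hist1h2be) to 6.23 TPM (Hist1h2bm). Hist1h2bp, with 2 annotated transcripts, had 6.08, 2.14 and 9.38 counts.

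The H3 genes had no single dominant member, and their means ran from 0.933 to 12.8 TPM. Hist2h3b was at 9.20, 18.8 and 10.3 TPM (12.8 ± 5.26, SD, n = 3), and Hist1h3i at 9.25, 8.69 and 10.3 TPM. Hist1h3b stood at 7.33 ± 1.84 TPM, Hist1h3c at 6.58 ± 0.240 TPM and Hist1h3h at 5.15 ± 0.280 TPM. The TPM ranges of the leading pair, Hist2h3b and Hist1h3i, overlapped, and no H3 gene held more than 24.3% of H3 counts in any library. By counts per coding length the order differed. Hist2h3c1 stood at 15.6 CPM per kilobase in the mean, Hist2h3c2 at 14.7, Hist2h3b at 12.4 and Hist1h3i at 6.75. The order of H3 genes therefore depends on the annotated length. No H3 gene reached the top 10% of protein-coding levels, while 11 of 12 had a mean of at least 1 TPM. The other 7 H3 genes ran from 0.933 TPM (Hist1h3d) to 5.05 TPM (Hist1h3a).

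The H4 genes, which encode the most conserved core histone, ran from 0.263 to 23.6 TPM in the mean. Hist1h4h was at 20.5, 31.6 and 18.8 TPM (23.6 ± 6.98, SD, n = 3), Hist1h4f at 13.9, 24.0 and 12.2 TPM and Hist1h4m at 13.7, 22.7 and 13.0 TPM. These 3 genes kept the same order in every library except that Hist1h4m was above Hist1h4f in replicate 3. Hist1h4k was at 12.5 ± 1.96 TPM and Hist1h4c at 10.3 ± 5.27 TPM. By counts per coding length, Hist1h4d stood at 23.4, 51.6 and 30.2 CPM per kilobase, Hist1h4c at 20.2, 42.8 and 25.8, and Hist1h4h at 23.5, 33.4 and 27.8. Their ranges overlapped, and Hist1h4h was above Hist1h4c in replicates 1 and 3; Hist1h4d was singled out after its values were seen. The other 8 H4 genes, Hist1h4d among them, ran from 0.263 TPM (Hist4h4) to 9.44 TPM (Hist1h4n).

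By cluster, Hist1 on chromosome 13 held 56 genes and 77.5% ± 1.00 (SD, n = 3) of the clustered histone counts. Of these, 55 lay between 21715763 and 23934851, and the pseudogene Hist1h2al lay apart at 51202727. Hist2 on chromosome 3 (96219865 to 96270132) held 10 genes and 15.4% ± 1.24 of the counts, 9 of them detected. Its detected members beyond those named above were Hist2h2ac (5.94 ± 2.23 TPM), Hist2h2bb (5.24 ± 1.52), Hist2h3c2 (4.84 ± 1.02), Hist2h3c1 (3.54 ± 1.76) and Hist2h4 (1.54 ± 0.976). Hist3 on chromosome 11 held 3 genes and 6.91% ± 2.29 of the counts, nearly all from Hist3h2a; Hist3h2ba had 5 counts or fewer and Hist3h2bb-ps 2, 16 and 10. Hist4 on chromosome 6 consisted of Hist4h4, with 30, 54 and 52 counts and 0.263 ± 0.119 TPM.

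Of the 5 genes with a count of 0 in every library, Hist1h2aa and Hist1h2ba form the head-to-head pair of testis H2A and H2B genes, and Hist1h2aj and Hist1h2al are pseudogenes. A count of 0, with 3 counts as the limit, allowed up to 0.365 TPM for Hist1h2aa, 0.379 for Hist1h2ba, 0.471 for Hist1h2aj and 0.520 for Hist1h2al in the library that allowed most. Hist1h2ao also had 0, with an allowance of 0.235 TPM, but only 6.2% of the 31-base stretches of its transcript were found in no other gene. Its reads cannot be told from those of Hist1h2ap in most of its length, so its 0 depends on how the quantification divided them. Hist1h2aj and Hist1h2al, with 6.5% and 18.1% of their stretches to themselves, also share most of their sequence with other genes. For these 3 genes the limit from 3 counts does not cover that division. The authors' deposited upper bounds reached 1.16 TPM for Hist1h2ao, 0.953 for Hist1h2aj and 0.599 for Hist1h2al.

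H2A and H2B genes often lie head to head, and 14 such pairs had starts within 500 bases of each other. In 9 of them both genes were detected. The H2B gene was higher than its H2A partner in all 3 libraries in 5 pairs, and lower in all 3 in the other 4. The widest difference was in Hist1h2bc and Hist1h2ac, whose starts lie 251 bases apart: Hist1h2ac was at 0.410, 0.440 and 0.470 TPM. On the log2(TPM + 1) scale Hist1h2bc was 5.07 ± 0.33 (SD, n = 3) above it, and 5.46 above it in counts. Hist1h2bg exceeded Hist1h2ae by 1.67 ± 0.52, Hist1h2bk exceeded Hist1h2ah by 1.35 ± 0.15 (2.23 in counts and 0.47 in the second quantification), Hist1h2bj exceeded Hist1h2ag by 0.91 ± 0.65 and Hist1h2bf exceeded Hist1h2ad by 0.67 ± 0.54.

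In the other 4 pairs the H2A gene was higher. The difference, H2B minus H2A, was -2.08 ± 0.20 (SD, n = 3) for Hist1h2br and Hist1h2ap, -0.94 ± 0.42 for Hist1h2bl and Hist1h2ai and -0.45 ± 0.27 for Hist1h2bn and Hist1h2ak. That for Hist1h2br (-3.02 in counts) is uncertain, because its reads cannot be told from those of Hist1h2bq. Its partner Hist1h2ap shares 93.4% of its 31-base stretches with Hist1h2ao, which had 0 counts. Hist1h2bl, Hist1h2ai, Hist1h2bn and Hist1h2ak had 11.4%, 8.0%, 12.0% and 30.0% of their stretches to themselves. The differences of their pairs thus also depend on how reads were divided. For Hist2h2be and Hist2h2ac it was -1.06 ± 0.68 in TPM but 1.67 in counts, since Hist2h2be has a model of 2620 bases and Hist2h2ac of 520. The direction for that pair therefore depends on the annotated length. With 3 libraries, a two-sided exact sign-flip test on 1 pair cannot reach a p below 0.25, so none is given. The second quantification, described below, gave the same direction in all 9 pairs.

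**Figure D3:**
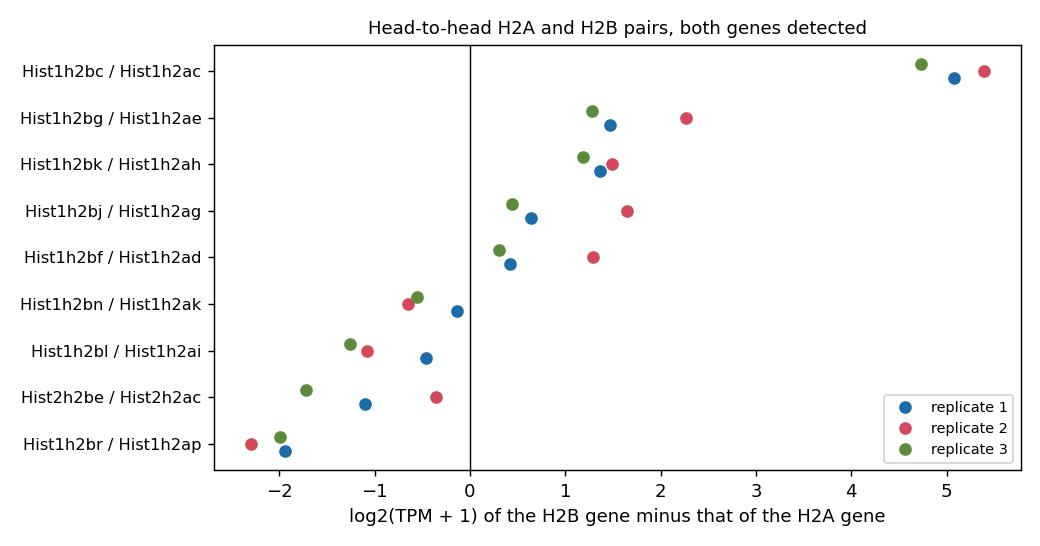
Difference between the H2B and the H2A gene of each head-to-head pair with both genes detected, in log2(TPM + 1); each point is 1 library and the vertical line is no difference. The Hist1h2bc and Hist1h2ac pair lies between 4.73 and 5.39, and no pair has libraries on both sides of 0.

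Near-identical copies limit the values of single members. The authors deposited a lower and an upper bound for each TPM, and a second quantification made from the same reads. Of 59 detected members, 18 had under 20% of their 31-base stretches to themselves, 23 had 20 to 60% and 18 had 60% or more. Upper bounds were 1.67 times the lower in the median of the first of these classes, 1.45 times in the next and 1.31 times in the last. The class with the fewest own stretches reached 60.4 times, in Hist1h2bq. Hist1h2bq and Hist1h2br, which share all such stretches of their main transcripts, had bounds of 0.156 to 9.42 and 0.142 to 8.96 TPM in replicate 1, and can be read only as a sum of 122, 118 and 160 counts. Hist2h2aa2 had 0.0% of its stretches to itself and Hist2h2aa1 10.3%. Hist2h2aa1 and Hist2h2aa2 summed to 1139, 1172 and 2058 counts, or 32.2 ± 2.49 CPM (SD, n = 3). That sum is itself uncertain, because Hist2h2aa1 shares 89.7% of its stretches with a gene outside the class, described below. Hist1h4m and Hist1h4n summed to 248, 297 and 460.

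No member was called as different between the 2 quantifications, by a test that says little at low levels. Of 64 members tested, 0 passed limma's test against a 2-fold difference with Benjamini-Hochberg adjustment, and 0 had an unadjusted p under 0.05; over all genes 164 of 15398, or 1.07%, passed, and 749 had an unadjusted p under 0.05. The difference of log2(TPM + 1), first minus second and centred on protein-coding genes, ran from -1.12 in Hist1h2ah to 0.59 in Hist2h3c1, with a median of -0.07, beside -0.14 for all genes tested. Without the 2-fold threshold, limma called 24 of 64 members, or 37.5%, beside 59.7% of all genes. After centring, 9 of the 24 had a positive difference and 15 a negative difference. At low levels the sign need not give the direction, because adding 1 TPM shrinks the difference while the centre is subtracted in full. For the same reason a large difference at low levels can go uncalled. Hist2h3c1 was at 2.91, 5.53 and 2.19 TPM in the first quantification. In the second it was at 0.431, 1.37 and 0.000284 TPM, and it was not called. Hist1h1d, at 0.700 TPM in the first and 0.312 TPM in the second quantification of replicate 1, had a mean difference of -0.52. As a median over the 3 libraries, the second count was 0.993 to 1.33 times the first in members with 60% or more of their stretches to themselves, and 0.357 to 2.99 times in those with under 20%. Values in 1 library went further, to 1.73 in Hist1h1b of the former and to 4.85 in Hist1h2ah and 0.000478 in Hist2h3c1 of the latter.

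**Figure D4:**
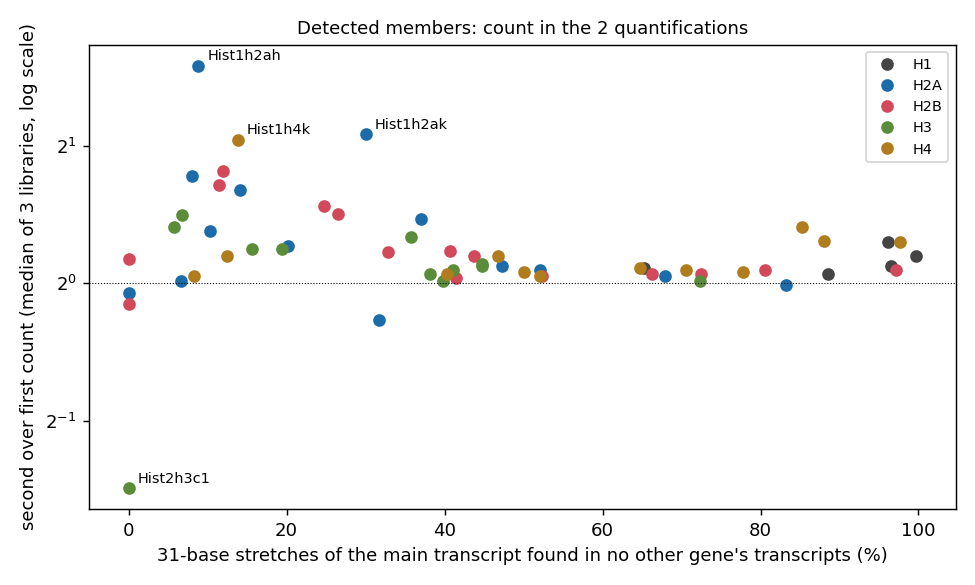
Count of each of the 59 detected members in the second quantification divided by that in the first (median of 3 libraries, log axis), against the percentage of 31-base stretches of its main transcript that no other gene's transcript holds. The medians of members with 60% or more lie between 0.993 and 1.33, while Hist1h2ah (2.99) and Hist2h3c1 (0.357) with few own stretches lie apart.

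Hist2h3c1 and other Hist2 members share sequence with a gene outside the class. Hist2h3c1 had 255, 456 and 388 counts in the first quantification and 91.0, 283 and 0.185 estimated counts in the second. All its 31-base stretches occur in Gm20634, an annotated processed transcript on the same strand of chromosome 3 (96245554 to 96248509) that spans Hist2h2aa1 and Hist2h3c1. Gm20634 also holds 89.7% of the stretches of Hist2h2aa1, 80.6% of those of Hist2h3b and 64.2% of those of Hist2h3c2. The values of these members thus also depend on how reads were divided. Gm20634 itself had 722, 885 and 1174 counts. Adding them would raise the clustered share of gene counts from 0.0439% to 0.0460%, as an alternative chosen after seeing the data. Antisense annotations over Hist2 members also had counts, 127, 139 and 215 for Gm20632 over Hist2h2aa2 and 106, 82.9 and 198 for Gm20628 over Hist2h3b and Hist2h2bb. The sources used here do not say if counting took strand into account, so these values are uncertain. Further, 19 H2A genes overlapped a small miRNA annotation on the opposite strand, none with more than 2.99 counts in any library.

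No member passed the test for excess spread between libraries, which compares each gene with the trend for its level. Of 59 members tested, 0 were called by edgeR's goodness-of-fit test with Benjamini-Hochberg adjustment over all genes, beside 209 of 12250 genes, or 1.71%. Unadjusted p-values under 0.05 occurred for 7 of the 59 (11.9%), beside 753 of 12250, or 6.15%. Those 7 were Hist3h2a, Hist1h4d, Hist1h1a, Hist2h2ac, Hist1h4c, Hist2h4 and Hist2h3c1. Hist3h2a had the smallest adjusted p, 0.0684, with 1533, 793 and 1643 counts and its lowest normalized value in replicate 2. The SD of log2 CPM after TMM normalization, which corrects for differences in library makeup, had a median of 0.33 over the members and 0.16 over all genes tested. Unlike the test, these medians were not matched for level, and this SD also depends on the number of counts. These p-values cover differences among the libraries alone, part of which can be technical, since the labels do not say if they came from separate animals.

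Of the 59 members, 47 were higher in replicate 3 than in replicate 1 and 40 in replicate 2 than in replicate 1, beside 49.9% of all genes tested for each. On TMM-normalized log2 CPM, 28 of the 59 members (47.5%) were highest in replicate 3, as were 32.3% of all genes tested. Another 24 (40.7%) were highest in replicate 2, beside 37.1% of all genes, and 7 (11.9%) in replicate 1, beside 30.6%. The median difference over the 59 members was 0.26 for replicate 2 minus 1 and 0.39 for replicate 3 minus 1. No test of a difference between histone types was run, and the values by type are a description. All 12 H3 genes were higher in replicate 3 than in replicate 1, with a median difference of 0.70, and 12 of 13 H4 genes were, with 0.33. The H3 count was 11 of 12 when libraries were scaled by total gene counts or taken from the second quantification. For replicate 2 minus 1 the median was 0.53 for H4 genes (10 of 13 higher) and 0.52 for H3 genes (8 of 12). H2B genes had a median of 0.23 for replicate 2 minus 1 and of -0.02 for replicate 3 minus 1. H2A genes had 0.13 and 0.51, and H1 genes 0.10 and 0.31, in the same order. Over all 12250 genes tested, 6113 (49.9%) were higher in replicate 3 than in replicate 1, and as many, though not the same genes, in replicate 2 than in replicate 1. Many of these genes share reads, so their number is not a number of independent measurements.

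Other gene lists are given beside these values. Of 24 genes of DNA replication and S phase, 20 were higher in replicate 3 than in replicate 1, with a median difference of 0.32, and 0 of 24 passed the spread test. Of 10 genes of G2 and mitosis, 3 were higher in replicate 3 than in replicate 1 (median -0.11), 7 were highest in replicate 2 and 0 passed. Of 11 replacement histone genes, 4 were higher in replicate 3 than in replicate 1 (median -0.24) and 0 passed. The nuclear RNAs were higher in replicate 3 by a median of 1.34 (4 of 4) and lower in replicate 2 by 0.95 (4 of 4), and all 4 passed. The 7 macrophage markers, of which 0 passed, had medians of -0.32 for replicate 2 minus 1 and -0.29 for replicate 3 minus 1. The part of these in the histone differences was not tested.

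**Figure D5:**
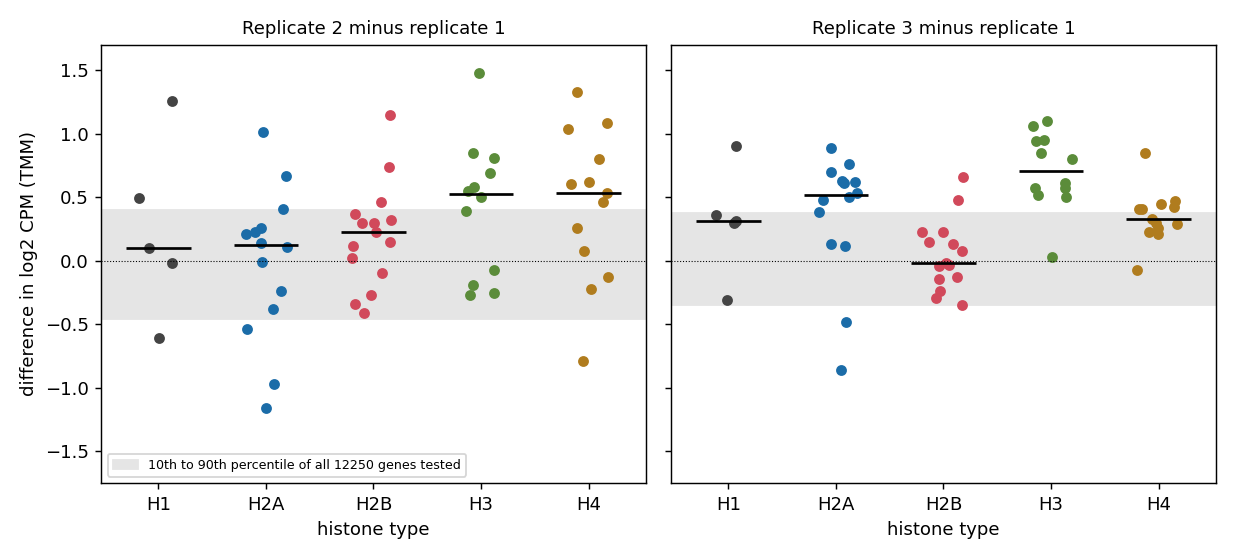
Difference in TMM-normalized log2 CPM between replicate 2 and replicate 1 (left) and between replicate 3 and replicate 1 (right) for the 59 members tested, by histone type; points are genes, black lines are medians and the grey band holds the 10th to 90th percentile of all genes tested. H3 genes lie at a median of 0.70 in the right panel and H2B genes at -0.02.

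Messages of genes that process and remove histone RNA were measured. Of 22 genes for processing and decay of histone messages, 20 had a mean of at least 1 TPM, with a median of 6.44 TPM. The other 2, Lsm11 (0.603 TPM in the mean) and Zfp473 (0.203 TPM), both belong to the U7 processing step and were singled out after their values were seen. The highest were Tut7, a terminal uridylyltransferase, at 32.4 ± 6.46 TPM (SD, n = 3), Sympk, the scaffold of the cleavage complex, at 17.7 ± 2.30, and Srrt, which acts with the cap-binding complex, at 15.3 ± 2.54. Slbp, the stem-loop binding protein, named for its role and after its values were seen, was at 9.37, 8.46 and 6.76 TPM. Of these 22 genes, 0 passed the spread test and 0 had an unadjusted p under 0.05.

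Histone chaperones, which carry histones to and from DNA, were likewise present, with 16 of 17 at 1 TPM or more. Npm1 led at 108 ± 31.1 TPM (SD, n = 3), before Set at 51.0 ± 7.67 and Nap1l1 at 35.2 ± 3.25. Among the replication genes, Pcna, the sliding clamp of DNA polymerases, was at 82.1 ± 13.2 TPM, Mcm6 at 10.1 ± 0.655 and Mcm3 at 8.36 ± 3.05, and the median of the 24 was 2.50 TPM. The 10 genes of G2 and mitosis had a median of 1.53 TPM, with Mki67 at 9.07 ± 3.24. In bulk RNA, few cycling cells with much histone message and many cells with little cannot be told apart.

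Replacement histone genes stood in a different relation to the clustered genes for each type. The replacement H3 genes H3f3a, H3f3b and H3f3c summed to 706, 802 and 465 TPM, against 52.8, 78.2 and 62.8 TPM for the 12 clustered H3 genes. That was 13.4, 10.3 and 7.40 times as much per length, or 3.33 ± 0.43 (SD, n = 3) on the log2 scale. H3f3b was at 373 ± 67.4 TPM and H3f3a at 283 ± 106 TPM. For H2A, 6 replacement genes, led by H2afz at 51.6 ± 11.8 TPM, summed to 132, 119 and 91.6 TPM against 145, 169 and 136 TPM for the clustered genes. For H1, H1f0 and H1fx summed to 24.3, 24.5 and 13.7 TPM, or 0.293, 0.335 and 0.244 times the clustered H1 genes. Each direction held in the 3 libraries. For H2A it turned in counts, where the replacement genes had 2.08, 2.06 and 1.88 times the clustered counts.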

How the data were processed

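The members and gene lists were chosen with earlier results of these data known. The deposited gene and transcript tables of each library were all on build mm10 with GENCODE M21, per the deposited notes. Expected counts, TPM and bounds of TPM in the gene table come from a transcriptome alignment made by the authors, as do the values of the first transcript table. In the second transcript table, the authors estimated counts and TPM from unaligned reads, per the deposited notes. The tools and the strand setting were not given in the sources used here. Input was 1 µg RNA and the labelled size range 250 to 400. All 55536 gene IDs matched GENCODE M21, which gave symbols, coordinates and transcripts (78 for the members).

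Library depth was 37861150 to 58889061 expected counts, and a count of 0 allowed 0.0509 to 0.0808 CPM with 3 counts as the limit. Library pairs differed beyond sampling noise (chi-square per degree of freedom 58.5 to 145 over genes with at least 20 reads), and each counted as 1 replicate. For spread, expected counts were rounded and fitted in edgeR 4.0.16 (filterByExpr, TMM, intercept-only fit, trended dispersion, goodness of fit, adjusted p under 0.05). For the 2 quantifications, differences of log2(TPM + 1) were centred on protein-coding genes with a mean of at least 0.1 TPM and fitted in limma 3.58.1 (treat, fold 2). Both procedures were tested on simulated data, the second only with changes in protein-coding genes above 5 TPM. Named members were the 5 highest of each type by TPM, the detected members of the Hist2, Hist3 and Hist4 clusters and of head-to-head pairs, those at 0 counts, and any called; of other lists the 3 highest. All 22 processing genes matched, Zcchc11 through its newer name Tut4. Alternatives covered the unit, the table, filters, scaling and each library left out.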

Additional observations from a re-analysis of the deposited data

How the results depend on the processing

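The clustered histone share of gene counts (0.0439%) was 0.0527% of the TPM sum, 0.0491% of protein-coding counts, 0.0393% in the second transcript table and 0.0460% with Gm20634 added, and 0.0435% to 0.0442% with each library left out. In TPM, the H1 share was 13.6%, the H2A share 28.7% and the H4 share 22.1%. With each library left out, the count shares were 28.7% to 33.0% for H1, 20.0% to 21.9% for H2A, 24.0% to 25.7% for H2B, 9.61% to 11.6% for H3 and 11.2% to 14.0% for H4. The 59 detected members became 52 at 1 TPM or more in every library, 58 in the second table and 59 or 60 with a library left out. No alternative of the spread test called a member, among them DESeq2 size factors and no filter. For the 2 quantifications, dropping the fold threshold called 24 members in place of 0, by construction of a weaker null, and the other alternatives called 0. Without replicate 3 that test called 0 genes in all, so it says nothing there. Medians between libraries kept their direction under DESeq2 size factors and protein-coding genes alone. In the second table, the H1 median of replicate 3 minus 2 was -0.08 in place of 0.26, and the H2A median of replicate 2 minus 1 was -0.01 in place of 0.13. With total gene counts as the scale, the median of replicate 3 minus 2 over all members was -0.00 in place of 0.11, where all genes shifted by -0.11. The cause was not tested. The log2 ratio of Hist2h2be over Hist2h2ac was 1.67 in counts in place of -1.06 in TPM, which depends on the annotated lengths. Ratios of 4 other pairs moved by more than 1 SD and kept their sign, among them Hist1h2bk over Hist1h2ah. No paired analysis was possible because the 3 libraries form 1 group. Depth limits the 11 members below 10 counts in a library, whose 0 or low values cannot be called absence.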
